A study of Mus musculus with 9 samples.

Results

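Gene expression in the renal cortex of diabetic db/db mice was compared with that of lean db/m mice over all genes that the arrays could name. The comparison used 6 of the 9 arrays of the series, 3 per group, chosen by the genotype and treatment in the sample labels. All mice were males of the C57BLKS/J strain aged 20 weeks. The db/m mice carry 1 mutant and 1 working copy of the leptin receptor gene Lepr, so the controls hold the mutant allele too, and both copies are mutant in db/db mice. The db/db mice of this comparison received saline into the stomach, and the labels name no gavage for db/m mice. The other 3 arrays came from db/db mice treated with TSF, the herbal Tang-shen Formula, at 2.4 g/kg/day for 12 weeks, and they entered the fit to estimate the spread between arrays. Each array is labelled as a biological replicate. The labels count 9 mice in each db/db group and do not say how these relate to the 3 arrays, so p-values measure the spread between these samples. The labels call the tissue kidney, and the series design calls it renal cortex.

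Leptin signals satiety through its receptor in the hypothalamus, and mice without a working receptor overeat, become obese and develop diabetes. In the kidney the filtered load of glucose then rises, and most filtered solute is taken back by the proximal tubule, whose segments S1 and S2 carry the bulk of glucose, phosphate and amino acid uptake. The straight segment S3 holds transporters and enzymes for organic anions, steroids and foreign compounds, and it is the segment that differs most between male and female mice. Beyond it lie the thick ascending limb, the distal convoluted and connecting tubules, which fine-tune sodium and calcium, and the collecting duct with its principal and acid-handling intercalated cells.

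In what follows a level is log2(deposited intensity + 1) of a gene on 1 array, and a difference is db/db minus db/m on the same log2 scale, given in parentheses after a gene. Levels of different genes come from different probe sets and are not compared with each other. The array medians of the 6 arrays lay between 3.50 and 3.56. Proximal tubule S1 and S2 markers had median levels of 10.83 to 11.13 over these arrays, thick ascending limb markers 8.34 to 8.71, and podocyte markers 6.07 to 6.46. The 4 tested adrenal cortex markers had medians between 3.43 and 3.61, near the array medians. Among the 6 arrays db/db replicate 3 stood apart at a few genes. There 21 genes lay at least 2-fold above all 8 others, against 0 to 7 genes in each of the other 5 arrays.

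Of 17740 genes tested, 105 rose and 82 fell in db/db at an adjusted p under 0.05 (limma, Benjamini-Hochberg). That is 1.05% of the genes, 0.592% up and 0.462% down. An unadjusted limma p under 0.05 was reached by 2474 of the 17740 genes, 1446 higher and 1028 lower. The counts at an unadjusted p given for lists below are to be read beside that share. The 3 arrays of one group did not overlap with those of the other at 3305 genes, 18.6% of those tested, of which 1837 were higher (10.4%) and 1468 lower (8.28%) in db/db. The median difference over all genes was 0.01, on arrays whose medians were already aligned when deposited, so a shift of all genes together could not be seen. Above 0 lay 52.2% of genes, and the 5th and 95th percentiles were -0.29 and 0.34. Which direction held more calls depended on the setting: quantile normalization gave 85 rises and 90 falls, the 6 arrays alone 57 and 73, and the fit with db/m replicate 1 left out 39 and 47. The fit with db/db replicate 1 left out gave 33 and 39. The called falls were larger than the called rises. The median called rise was 0.68 and the median called fall -0.84. At 2-fold or more 22 genes were higher, 8 of them called, and 54 lower, 32 of them called. At 4-fold or more there was 1 rise and 10 falls, all called, and at 8-fold or more 0 rises and 4 falls. Over all 9 arrays the median level was 5.73 for the genes that fell, 6.05 for those that rose and 5.31 for all genes. That mean contains the difference itself, which lowers it for falls and raises it for rises. In db/m the medians were 6.74 for the genes that fell and 5.53 for those that rose, and in db/db 5.35 and 6.36. Ranked by the same 9-array mean, 0 of the 3548 dimmest genes rose and 11 fell, and 31 of the 3548 brightest rose and 27 fell. With each of the 9 arrays left out in turn, 57 of the 187 genes passed in every fit, 25 that rose and 32 that fell. The total with 1 array left out lay between 72 and 194. Dropping replicate 1, 2 or 3 of db/m left 86, 122 or 109 genes, dropping replicate 1, 2 or 3 of db/db left 72, 121 or 82, and dropping replicate 3 of the TSF arrays left 116.

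**Figure D1:**
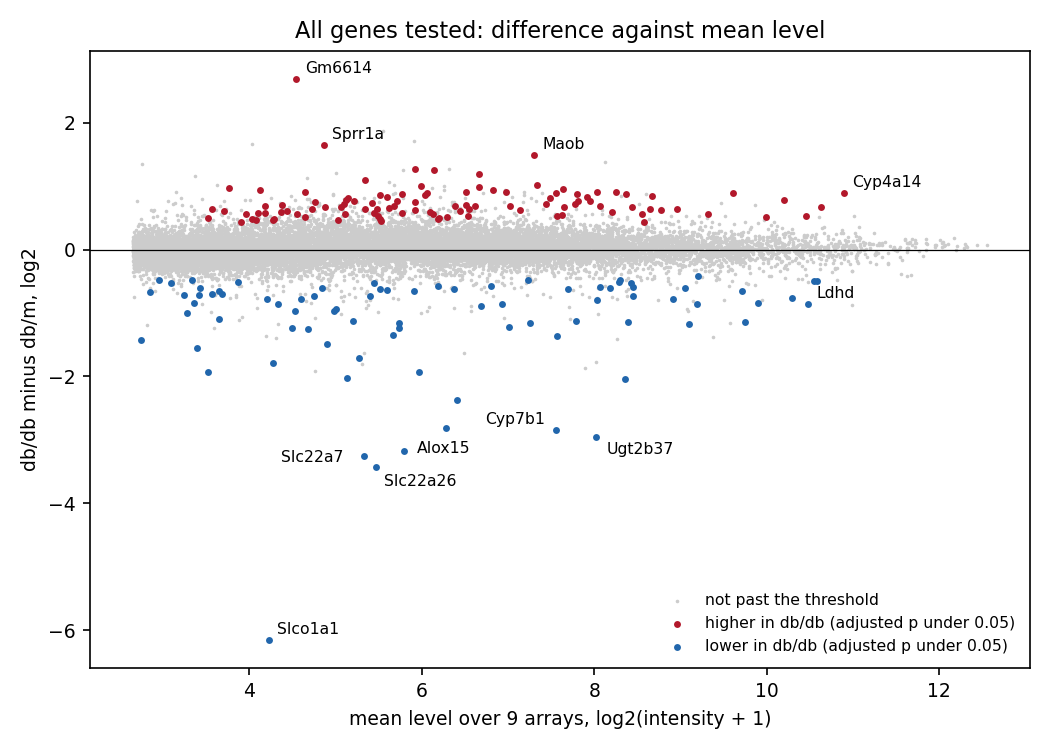
Difference between db/db and db/m (log2, vertical axis) against the mean level over 9 arrays (log2(intensity + 1), horizontal axis) for 17740 genes; red and blue points are the 105 genes that rose and the 82 that fell at an adjusted p under 0.05. The falls reach further than the rises: 10 genes fell and 1 rose by 4-fold or more.

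The largest rise and the largest fall were neighbours in the genome. Slco1a1 encodes an organic anion transporter of the proximal tubule, and it lay at 8.24, 8.62 and 8.22 in db/m and at 2.17, 2.36 and 2.10 in db/db (-6.15, SE 0.12; adjusted p = 3.2e-10). The next tested gene on chromosome 6, Gm6614, a protein-coding gene in RefSeq with only a model name, lay at 2.30, 3.18 and 3.61 in db/m and at 5.80, 5.64 and 5.74 in db/db (2.69, SE 0.43; adjusted p = 0.0146). The groups stood clear of each other at both genes, and at Slco1a1 all db/db arrays were under 2.65, the level below which genes were left out as dim. The flanking relatives did not pass: Slco1a4 had a difference of -0.43 and Slco1a6, bright in both groups, of 0.09. Gm6614 was named after its values were seen.

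A second cluster, on chromosome 19, holds organic anion transporters of the Slc22 family. Slc22a26 fell from 8.39, 7.40 and 7.61 to 4.66, 4.39 and 4.08 (-3.42, SE 0.23; adjusted p = 0.000121), and its neighbour Slc22a28 from 8.10, 8.32 and 8.23 to 7.26, 7.17 and 6.73 (-1.16; adjusted p = 0.00779). In the same cluster Slc22a8 and Slc22a6, the main basolateral organic anion transporters of the kidney, had differences of 0.12 and -0.28 and did not pass. Elsewhere in the family Slc22a7, another organic anion carrier, fell from 8.15, 7.44 and 7.01 to 3.85, 3.30 and 5.70 (-3.25; adjusted p = 0.0275). Slc22a2, the basolateral organic cation transporter, fell by 0.49 on the log2 scale (adjusted p = 0.0233) from a level near 10.9. In all, 4 of 20 tested Slc22 genes fell and 0 rose, and 15 of 20 lay below 0 (median -0.24), beside a background of 0.462% that fell. Among all 338 tested solute carriers 6 fell and 2 rose, beside 0.462% and 0.592% of all genes, with a median difference of 0.01. The calls outside these families were the proton exchanger Slc9a8 (-0.74), the lysosomal carrier Slc46a3 (-0.62), the sodium-calcium exchanger Slc8a1 (0.88) and Slc38a11 (0.43), of the amino acid carrier family. Slco1a1, Slc22a26 and Slc22a28 passed with any array left out. When db/db replicate 1 was left out the adjusted p was 0.0658 for Gm6614, 0.104 for Slc22a7 and 0.105 for Slc9a8. When db/db replicate 3 was left out it was 0.09 for Slc22a2 and 0.112 for Slc38a11. When db/m replicate 1 was left out it was 0.149 for Slc46a3 and 0.125 for Slc8a1. These are the highest values. Of the 9 such fits Slc38a11 was lost in 9, Slc46a3 in 8 and Slc8a1 in 7. Slc22a7, Slc22a2 and Slc9a8 were lost in 5 each and Gm6614 in 3.

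The bases just before the transcription start are shown for the genes on which these clusters turn, so that neighbours that fell or rose together can be read side by side. Each line gives 120 bases before the first RefSeq start (GRCm38.p6), 5′ to 3′ on the strand of the gene, with no base after it. They lie at chr6:141946963-141947082 (minus) for Slco1a1, chr19:7802668-7802787 (minus) for Slc22a26, chr19:8131983-8132102 (minus) for Slc22a28, chr5:8566971-8567090 (plus) for Abcb1a and chr5:8798027-8798146 (plus) for Abcb1b. Capitals mark matches to any of 8 motifs searched on both strands: AGAACA (steroid receptor half-site), AGGTCA (nuclear receptor half-site), CACGTG (E-box), TATAAA (bound by the general transcription machinery), CCAAT (bound by nuclear factor Y), TTCNNNGAA (STAT site), GTTAAT (HNF1 half-site) and TGACNNNGC (antioxidant response element core).
Slco1a1: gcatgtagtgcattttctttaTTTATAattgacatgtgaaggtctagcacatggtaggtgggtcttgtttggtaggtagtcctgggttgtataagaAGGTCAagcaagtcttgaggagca
Slc22a26: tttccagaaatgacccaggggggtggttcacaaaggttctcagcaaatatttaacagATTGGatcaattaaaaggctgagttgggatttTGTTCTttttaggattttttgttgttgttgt
Slc22a28: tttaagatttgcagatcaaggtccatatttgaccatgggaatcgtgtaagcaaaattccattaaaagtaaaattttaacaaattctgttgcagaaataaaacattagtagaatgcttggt
Abcb1a: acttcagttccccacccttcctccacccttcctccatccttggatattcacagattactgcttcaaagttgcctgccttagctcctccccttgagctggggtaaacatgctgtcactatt
Abcb1b: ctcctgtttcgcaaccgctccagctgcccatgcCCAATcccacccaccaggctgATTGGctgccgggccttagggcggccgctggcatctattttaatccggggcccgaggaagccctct
The Slc22a26 window held a CCAAT match and a steroid receptor half-site, the Slc22a28 window none of the 8 motifs. Abcb1b, one of the efflux pump genes described further on, held 2 CCAAT matches and 7 CpG in a window with 64.2% G and C, and its neighbour Abcb1a held no match, 0 CpG and 50% G and C. Over windows from 250 bases before to 50 after the start, 80 genes that rose, 61 that fell and 13795 of all tested genes had a promoter in the table. The steroid receptor half-site was in 17.5% of the windows of genes that rose, 18% of those that fell and 14.2% of all. The nuclear receptor half-site was in 13.8%, 13.1% and 13.4%, the E-box in 8.75%, 8.2% and 9.24%, and the TATA box in 10%, 11.5% and 9.27%. The CCAAT box was in 38.8%, 27.9% and 37.9%, the STAT site in 6.25%, 4.92% and 7.26%, the HNF1 half-site in 10%, 4.92% and 5.12%, and the antioxidant response element core in 16.2%, 8.2% and 14%. Windows with fewer than 5 CpG made up 27.5% of the genes that rose, 32.8% of those that fell and 17.5% of all. A match is a description of letters, not of a factor bound there.

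**Figure D2:**
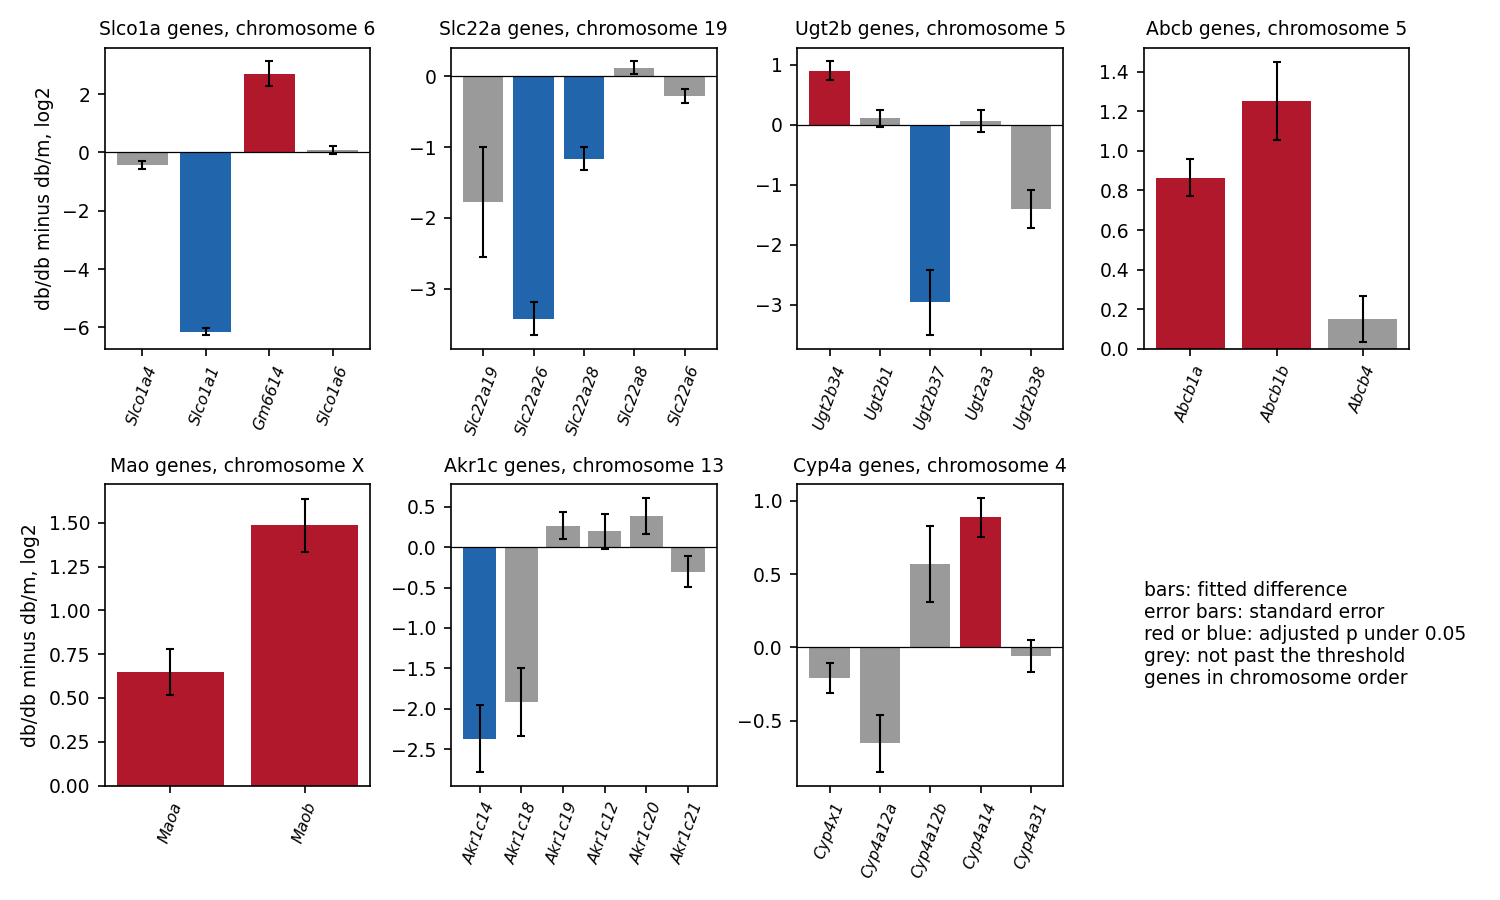
Differences between db/db and db/m (log2, bars) with the SE of the fit (error bars) for tested genes of 7 gene families, in gene order on their chromosome; red and blue bars passed an adjusted p of 0.05 and grey bars did not. Slco1a1 (-6.15) stands beside Gm6614 (2.69), Slc22a26 and Slc22a28 fell together, Ugt2b34 rose while Ugt2b37 fell, and both Abcb1 genes and both Mao genes rose.

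Enzymes that attach sugars to steroids and drugs also split within a cluster. Ugt2b37, a glucuronosyltransferase on chromosome 5, lay at 10.19, 10.38 and 10.20 in db/m and at 8.15, 7.99 and 5.77 in db/db (-2.96; adjusted p = 0.0305). Ugt2b34 rose from 6.87, 6.98 and 6.92 to 7.99, 7.86 and 7.61 (0.90; adjusted p = 0.0233). The fall of Ugt2b37 was deepest in db/db replicate 3, while the rise of Ugt2b34 was of like size in all 3 db/db arrays. Ugt2b38 had a difference of -1.40 and missed the threshold (adjusted p = 0.0612). In the aldo-keto reductase cluster Akr1c14, a 3-alpha-hydroxysteroid dehydrogenase, fell from 8.50, 8.33 and 7.99 to 6.19, 6.22 and 5.31 (-2.37; adjusted p = 0.0233). The progesterone-metabolising Akr1c18 had -1.91 (adjusted p = 0.0612), and Akr1c21, bright in both groups, -0.30. Among hydroxysteroid dehydrogenases Hsd3b3 rose (0.83) and Hsd17b11 fell (-0.65). Probe sets of near-identical relatives can share signal, so the split of a change within these clusters is uncertain.

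Cytochromes P450, which oxidise fatty acids, steroids and drugs, changed in both directions, with a median of -0.03. Of 64 tested in the family list 3 rose and 2 fell, beside 0.592% and 0.462% of all genes. Cyp4a14, a fatty acid omega-hydroxylase, rose from 10.02, 10.29 and 10.48 to 11.07, 11 and 11.38 (0.89; adjusted p = 0.0101). Cyp2d26 rose (0.78) and so did Cyp17a1 (0.97), a steroidogenic enzyme that remained dim, between 3.91 and 4.46 in db/db. Cyp7b1, an oxysterol hydroxylase, and Cyp2j13, of an epoxygenase family, fell (-2.84 and -1.17). Cyp51, also a cytochrome P450 but not counted in that list, fell from 7.59, 7.33 and 7.42 to 5.73, 5.25 and 5.55 (-1.94; adjusted p = 0.019). The flavin monooxygenase Fmo5 fell from 8.28, 8.57 and 8.71 to 7.24, 7.25 and 7.01 (-1.36; adjusted p = 0.00335). Glutathione S-transferases, which conjugate electrophiles with glutathione, leaned upward, with 15 of 19 above 0 (median 0.21, and 0.12 without db/m replicate 1). Of the 19, 3 rose, beside 0.592% of all genes, and 0 fell. Gsto1 rose from 7.64, 7.92 and 7.75 to 8.57, 8.59 and 8.77 (0.88; adjusted p = 0.00296), Gsta4 by 0.62 and Gsta3 by 0.53, and Gstp3 reached 1.25 without passing (adjusted p = 0.0503). The microsomal epoxide hydrolase Ephx1 rose as well (0.67). The median of this family lay at 0.22 after median scaling and at 0.19 after quantile normalization. Cyp7b1 passed with any array left out. Cyp17a1 was lost in 6 of 9 such fits and reached an adjusted p of 0.0987 without db/m replicate 1. Cyp51 was lost in 5 of them and reached 0.0712 without the same array. Of the other 13 called genes of this and the preceding paragraph, Cyp4a14, Cyp2d26, Gsto1, Hsd17b11 and Fmo5 passed with any array left out. The other 8 had highest adjusted p between 0.0877 and 0.155. All 8 were lost when replicate 1, 2 or 3 of db/m was left out, 7 when replicate 1 of db/db was, and 6 each when its replicate 2 or 3 was.

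Among 10 tested genes of biogenic amine metabolism and transport 3 amine oxidases rose and the transporter Slc22a2 fell, and the median of the list was 0.11. Of all genes 0.592% rose and 0.462% fell. Maob, monoamine oxidase B of the outer mitochondrial membrane, rose from 6.15, 5.84 and 6.50 to 7.60, 7.62 and 7.72 (1.49, SE 0.15; adjusted p = 0.00239). Its neighbour on chromosome X, Maoa, rose from 4.93, 5.14 and 5.33 to 5.98, 5.79 and 5.58 (0.65; adjusted p = 0.0465). Aoc1, which oxidises histamine and putrescine, lay at 5.74, 5.74 and 5.44 in db/m and at 6.35, 6.17 and 6.65 in db/db (0.75; adjusted p = 0.0238). The groups did not overlap at any of these 3 genes, and the TSF arrays lay at 5.73, 5.67 and 5.81 for Aoc1, within the range of db/m or just beside it. Kynu, the kynureninase of tryptophan breakdown, rose from 7.18, 7.61 and 7.48 to 8.30, 8.30 and 8.37 (0.90; adjusted p = 0.0093). It was the only call among 16 tested genes from tryptophan to NAD, 12 of which lay below 0 (median -0.10, and -0.042 without db/m replicate 3). Maob and Kynu passed with any array left out. Maoa was lost in 7 of 9 such fits and Aoc1 in 4, with adjusted p up to 0.152 and 0.0832 when db/db replicate 1 was left out.

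**Figure D3:**
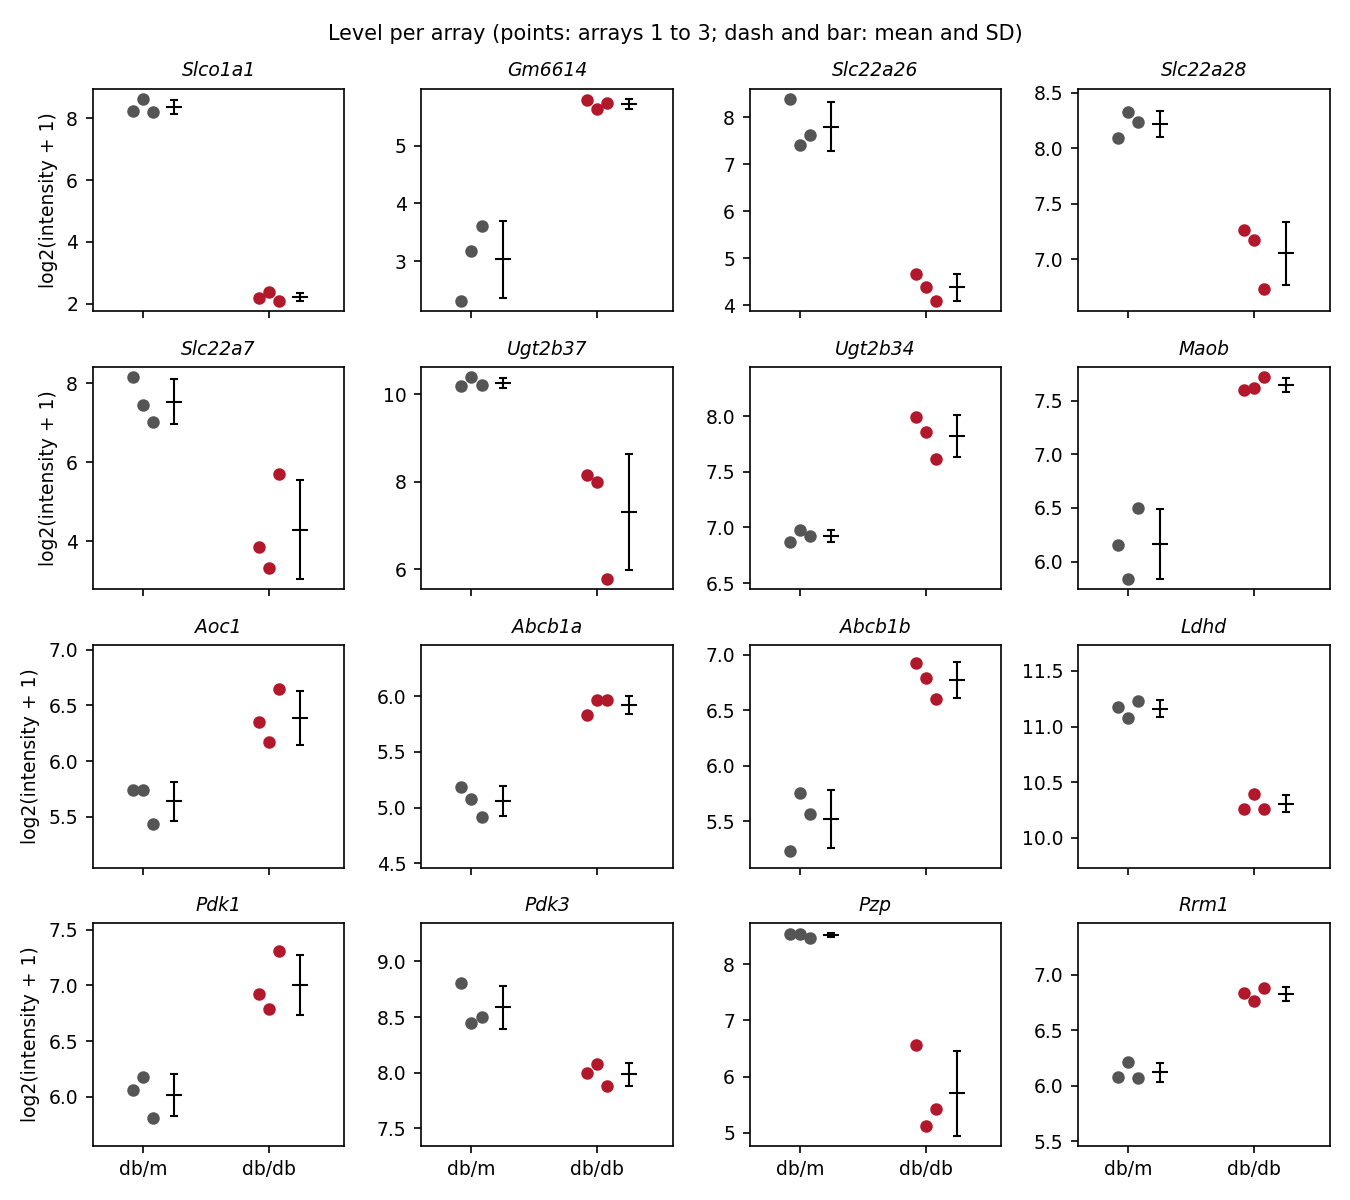
Level of 16 genes on each of the 3 db/m arrays (grey) and 3 db/db arrays (red), log2(intensity + 1), with the mean and SD of each group; each panel has its own vertical range of at least 2 log2 units. The 2 groups do not overlap in any panel, while Slc22a7 and Ugt2b37 have 1 db/db array apart from the other two.

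In fuel metabolism several single enzymes passed the threshold. Ldhd, the mitochondrial D-lactate dehydrogenase, fell from 11.17, 11.08 and 11.23 to 10.26, 10.39 and 10.26 (-0.86, SE 0.10; adjusted p = 0.003). Me1, the cytosolic malic enzyme that makes NADPH, fell from 9.68, 9.65 and 9.83 to 9.08, 8.85 and 8.67 (-0.85; adjusted p = 0.00677). The pyruvate dehydrogenase kinases, which switch off pyruvate oxidation, went opposite ways. Pdk1 rose from 6.06, 6.18 and 5.81 to 6.92, 6.79 and 7.31 (0.99; adjusted p = 0.00794), and Pdk3 fell from 8.81, 8.45 and 8.50 to 8.0, 8.08 and 7.88 (-0.60; adjusted p = 0.048). The pyruvate kinase gene Pklr rose (0.69). Oat, the ornithine aminotransferase of proline and ornithine metabolism, and Prodh2, a hydroxyproline dehydrogenase, rose by 0.53 and 0.76. Ldhd, Me1, Pdk1, Pdk3, Pklr, Oat and Prodh2 were grouped here after their values were seen.

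Lipid enzymes likewise split. The fatty acid uptake receptor Cd36 fell from 10.16, 10 and 9.91 to 7.98, 8.03 and 7.96 (-2.04; adjusted p = 0.0084), and the 12/15-lipoxygenase Alox15 by 3.18 on the log2 scale (adjusted p = 0.000127). Of 18 genes of acyl-CoA handling 2 rose, beside 0.592% of all genes, and 0 fell (median 0.02). The 2 that rose were Acsf2 (0.94), an acyl-CoA synthetase, and Acss3 (0.58), a propionyl-CoA synthetase. The elongase Elovl6 rose (0.63) and the desaturase Fads1 fell (-0.42). Peroxisomal genes leaned down, with 22 of 27 below 0 and a median of -0.10 (-0.059 without db/m replicate 3). Of the 27, 1 was called, beside 0.462% of all genes that fell. This was Amacr, the racemase of branched-chain fatty acids and bile acid intermediates. It fell from 10.96, 10.73 and 10.81 to 10.12, 10.18 and 9.93 (-0.76; adjusted p = 0.00726). Crot (-0.55) and Ehhadh (-0.41), of peroxisomal fatty acid export and oxidation, did not pass. All 6 ketone body genes lay below 0 with 0 calls (median -0.23; 3 at an unadjusted p under 0.05). Of 21 genes of branched-chain amino acid breakdown 0 passed in the limma fit (median 0.01; 3 at an unadjusted p under 0.05). Degs2, which hydroxylates ceramide, fell from 7.78, 7.85 and 8.09 to 6.49, 6.94 and 6.60 (-1.23; adjusted p = 0.00266). It was the only call among 18 sphingolipid genes, beside 0.462% of all genes that fell. Abhd6, a monoacylglycerol lipase, rose from 8.16, 8.10 and 8.10 to 8.86, 8.91 and 9.11 (0.84; adjusted p = 0.003), and Agmo, the ether lipid monooxygenase, rose by 1.01. Alcohol and aldehyde dehydrogenases Adh1 (-0.50) and Aldh3a2 (-0.51) fell from levels of 10.76 to 11.02 and 8.50 to 8.68. Of 32 cytochrome oxidase and ATP synthase genes 29 lay above 0 with 0 calls (median 0.11; 4 at an unadjusted p under 0.05). Of the 19 called genes of the last 2 paragraphs, 9 passed with any array left out: Ldhd, Me1, Pdk1, Cd36, Amacr, Degs2, Abhd6, Agmo and Alox15. The other 10 reached adjusted p between 0.0641 and 0.154. All 10 were lost when db/db replicate 1 was left out and 9 each when its replicate 2 or 3 was. Leaving out replicate 1, 2 or 3 of db/m lost 7, 6 or 7 of them.

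Drug efflux pumps were among the genes that rose. Of 44 tested ABC transporters 4 rose, beside 0.592% of all genes, and 0 fell (median 0.04). Abcb1a and Abcb1b encode the 2 mouse P-glycoproteins, which pump hydrophobic drugs out of cells. Abcb1a rose from 5.18, 5.08 and 4.91 to 5.83, 5.97 and 5.97 (0.86; adjusted p = 0.00282), and Abcb1b from 5.24, 5.76 and 5.57 to 6.92, 6.79 and 6.60 (1.25; adjusted p = 0.0144). Their cluster neighbour Abcb4, a phospholipid pump, had 0.15 and did not pass. Abcc4, an apical organic anion pump, rose (0.92; adjusted p = 0.0115), and so did Abca5 (0.48). The basolateral anion pump Abcc3 had a large difference of 1.88 and missed the threshold (adjusted p = 0.142). Its db/m arrays lay at 3.91, 4.69 and 4.86 and its db/db arrays at 6.30, 5.77 and 7.02. Mtarc1, a molybdenum enzyme of the outer mitochondrial membrane, rose from 4.61, 4.68 and 5.01 to 6.06, 6.42 and 5.65 (1.28; adjusted p = 0.00726), while its neighbour Mtarc2 had 0.20. Abcb1a and Mtarc1 passed with any array left out. Abcb1b, Abcc4 and Abca5 were lost when db/db replicate 1 was left out, with adjusted p up to 0.149. Abcb1b was also lost when replicate 1 or 3 of db/m was left out, and Abca5 in every such fit.

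Markers of the proximal tubule were followed by segment. Of 11 S1 and S2 markers 0 passed in the limma fit (2 at an unadjusted p under 0.05), and their median difference was 0.11, or 0.058 without either db/m replicate 1 or db/db replicate 2. Of the 6 tested S3 markers all lay below 0, with a median of -1.26. The groups did not overlap at any of the 6, beside 8.28% of all genes lower without overlap. Of the 6, 1 fell at the threshold, beside 0.462% of all genes. That gene, Cyp7b1, went from 10.01, 9.53 and 9.87 to 6.70, 7.36 and 6.82 (-2.84; adjusted p = 0.00726). The amino acid carrier Slc7a13 lay at 10.85, 10.80 and 10.56 in db/m and at 9.71, 9.63 and 8.75 in db/db (-1.37; adjusted p = 0.326). The organic anion carrier Slc22a19 (-1.77; adjusted p = 0.341) and the phospholipid flippase Atp11a (-1.15; adjusted p = 0.0764) did not pass either. Fewer S3 cells and less RNA per cell cannot be told apart in tissue RNA. The fit takes the spread from all 9 arrays. In db/db+TSF replicate 2, Slc7a13 lay at 6.27, Slc22a19 at 4.43 and Atp11a at 7.96, below every other array, and 40 genes were at least 2-fold below all 8 others there. Without that array the adjusted p was 0.0332 for Slc7a13, 0.0106 for Slc22a19 and 0.000539 for Atp11a. With only the 6 arrays of db/m and db/db it was 0.0334, 0.0213 and 0.00185. For the steroid-oxidising Hsd17b2 (-1.63; adjusted p = 0.0503) and for Abcc3 the adjusted p without db/db+TSF replicate 2 was 0.000178 and 0.0295. Cyp27b1, described below, did not pass in either of these fits, with 0.0638 without that array and 0.0651 with only the 6 arrays.

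**Figure D4:**
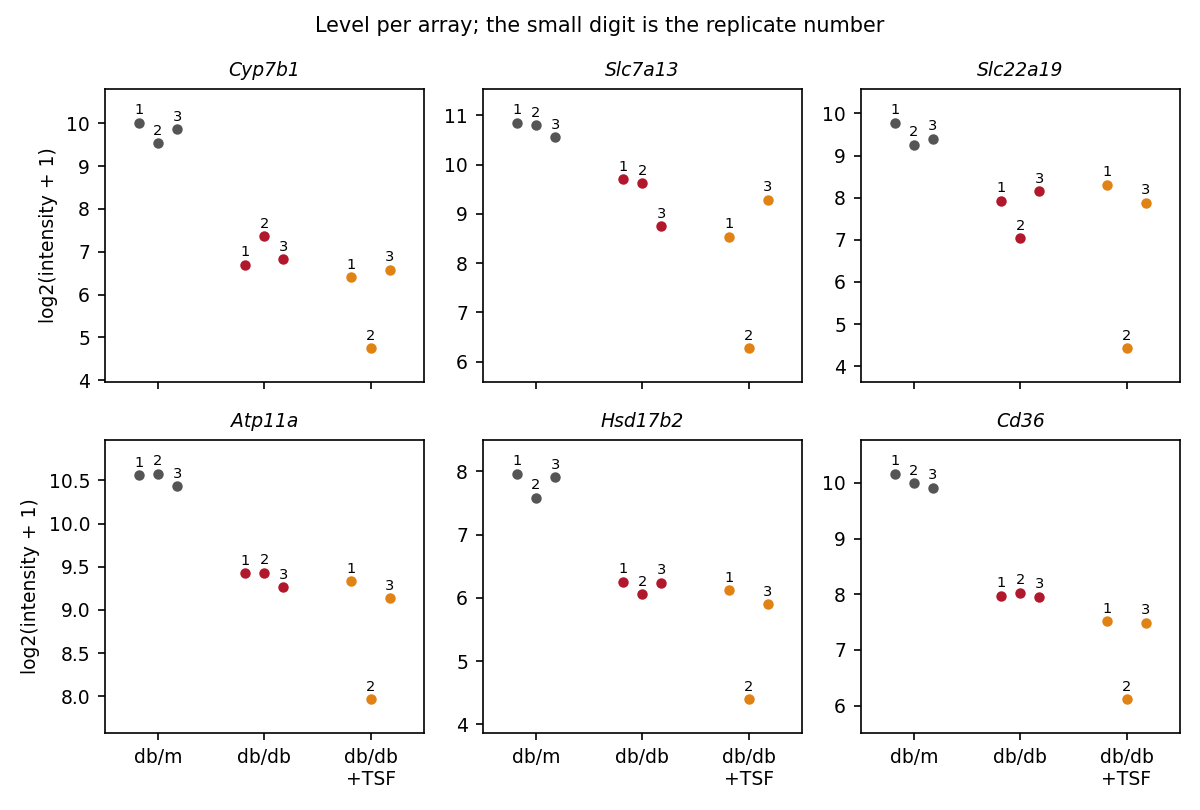
Level (log2(intensity + 1)) of 4 S3 marker genes, Hsd17b2 and Cd36 on each array, with the replicate number over each point; grey is db/m, red db/db and orange db/db given TSF. The db/db arrays lie below the db/m arrays in all 6 panels, and db/db+TSF replicate 2 lies below all other arrays.

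In the distal tubule the markers lay above 0. All 13 markers of the distal convoluted and connecting tubules lay above 0 (median 0.35), 10 without overlap between groups, beside 10.4% of all genes. Of the 13, 2 rose, beside 0.592% of all genes. Slc8a1, the sodium-calcium exchanger that returns calcium to the blood, rose from 6.96, 7.32 and 7.11 to 8.08, 8.03 and 7.92 (0.88; adjusted p = 0.0366). Calb1, the calcium buffer calbindin, rose from 10.04, 10.29 and 9.85 to 10.86, 10.45 and 10.90 (0.68; adjusted p = 0.0483). The apical calcium channel gene Trpv5 had 0.55 and did not pass (adjusted p = 0.125). Cyp27b1, which makes active vitamin D in the proximal tubule, lay at 7.31, 6.98 and 6.93 in db/m and at 8.78, 7.73 and 8.89 in db/db (1.39; adjusted p = 0.0513), clear of each other but just short of the threshold. All 9 thick ascending limb markers lay above 0 with 0 calls (median 0.28; 4 at an unadjusted p under 0.05). Of 12 intercalated cell markers (median 0.28) 1 rose, beside 0.592% of all genes. It was the vesicle channel Aqp6, which went from 7.86, 7.85 and 7.91 to 8.48, 8.29 and 8.64 (0.60; adjusted p = 0.0247). Atp4a, a proton-potassium pump subunit that is not on that list, rose (0.72). Of 11 principal cell markers 0 passed (median 0.19; 3 at an unadjusted p under 0.05), the sodium channel subunit Scnn1a having 0.54. None of these 4 calls passed with every array left out. All 4 were lost when db/m replicate 1 or replicate 1 or 3 of db/db was left out, with adjusted p up to 0.155, and 3 each when replicate 2 or 3 of db/m was.

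The Slc2 and Slc5 families, which hold glucose carriers and also carriers of other solutes, showed many small differences and no call. Of 23 tested genes of the Slc2 and Slc5 families 17 lay above 0 (median 0.19, and 0.11 without db/db replicate 3). Of the 23, 7 were higher in db/db without overlap, beside 10.4% of all genes. In the limma fit 0 passed, and 8 had an unadjusted p under 0.05. The insulin-responsive carrier gene Slc2a4 had the difference closest to the threshold (0.50; adjusted p = 0.0564). The late proximal sodium-glucose carrier Slc5a1 had 0.52 (adjusted p = 0.0938), and the early proximal Slc5a2 had 0.26. Slc5a2 lay at 10.62, 10.75 and 10.59 in db/m and at 10.95, 10.96 and 10.83 in db/db, with no overlap. Of 12 genes of the leptin receptor and its signalling 0 passed (median 0.12, and -0.057 without db/db replicate 3; 3 at an unadjusted p under 0.05). Lepr itself lay at 4.07, 3.71 and 3.73 in db/m and at 3.87, 3.66 and 4.35 in db/db (0.13), so the groups overlapped, and its difference was -0.068 without that array. Of the 50 tested genes nearest to Lepr on chromosome 4, 25 on each side, 0 passed (median 0.02). Of these 50, 11 had an unadjusted p under 0.05, beside 2474 of all 17740 genes. The groups did not overlap at 14, or 28%, beside 18.6% of all genes.

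Genes of plasma-type proteins, most of which are best known as products of the liver, were also measured in these cortex samples. They formed a mixed group chosen after the values were seen. Pzp, a protease-trapping alpha-macroglobulin, fell from 8.53, 8.53 and 8.47 to 6.56, 5.13 and 5.43 (-2.81; adjusted p = 0.0222). Hrg, histidine-rich glycoprotein, fell from 5.10, 5.26 and 6.25 to 3.92, 3.98 and 3.33 (-1.79; adjusted p = 0.0093). Serpinf2, the plasmin inhibitor, fell from 10.30, 10.52 and 10.55 to 9.61, 9.52 and 8.84 (-1.13; adjusted p = 0.0143). Itih2, a hyaluronan-binding inhibitor chain, Apoh, a phospholipid-binding glycoprotein, and Proc, the anticoagulant protein C, fell by 1.25, 0.77 and 0.59 on the log2 scale. In the other direction Apob, of lipoprotein particles, rose from 9.63, 9.73 and 9.48 to 10.05, 10.11 and 10.24 (0.52; adjusted p = 0.0374). Apoe (0.76), the secreted phosphoprotein Spp2 (0.76) and the tissue factor pathway inhibitor Tfpi (0.49) rose too. Hrg and Spp2 passed with any array left out. The other 8 reached adjusted p between 0.0624 and 0.155, and leaving out replicate 1, 2 or 3 of db/m lost 7, 3 or 8 of them, and replicate 1, 2 or 3 of db/db 5, 4 or 7.

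Other called genes, those of secreted proteins, a receptor gene and Ldc1, are given here after their values were seen, and the choice fixes no direction for such genes. Wfdc2 and Spink8, of secreted protease inhibitor families, and Fam3c, of a secreted cytokine-like family, rose (0.72, 0.69 and 0.62). Chrdl1, a bone morphogenetic protein antagonist, fell from 4.77, 4.17 and 4.54 to 2.94, 2.81 and 3.10 (-1.54; adjusted p = 0.00359). C1qtnf3, an adipokine of the C1q and TNF family, fell from 9.30, 9.07 and 9.35 to 8.05, 8.19 and 8.05 (-1.15; adjusted p = 0.000817), next to Amacr in gene order. Cpe, the carboxypeptidase that trims prohormones, fell from 6.94, 6.40 and 6.47 to 5.56, 5.42 and 5.13 (-1.23; adjusted p = 0.00779). Prok1, an endothelial growth factor, and Cym, a gastric-type aspartic protease gene, are neighbours on chromosome 3, and both fell (-1.23 and -1.71). Ldc1 fell by 2.03 on the log2 scale and the cholecystokinin receptor Cckar by 0.77. Except for Prok1 and Cckar, the genes that fell here passed with any array left out. Wfdc2, Spink8 and Fam3c reached adjusted p of 0.105, 0.113 and 0.131 when db/db replicate 1 was left out. Prok1 had an adjusted p of 0.123 when db/db replicate 1 was left out, and Cckar 0.0854 when replicate 3 was. Of the 9 such fits Fam3c was lost in 8, Prok1 in 6, Wfdc2 and Spink8 in 5 each and Cckar in 4. In all, 10 pairs of called genes lay side by side or with 1 tested gene between them, and 7 of the 10 moved the same way. No expected number was worked out for either count. Some of the pairs are relatives, such as Abcb1a and Abcb1b, whose probe sets can share signal.

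Among the genes that rose, 8 are known from cell division and DNA replication. They were picked after the values were seen and because they were called, so they are no count of all such genes. Rrm1, the large subunit of ribonucleotide reductase, rose from 6.08, 6.21 and 6.07 to 6.83, 6.76 and 6.88 (0.71; adjusted p = 0.00597). Racgap1 and Prc1, both of the spindle midzone, rose by 0.47 and 0.64, the anaphase activator Cdc20 by 0.56 and the condensin subunit Smc2 by 0.58. These genes were dim, with means of 3.82, 3.26, 3.64 and 3.92 in db/m and 4.29, 3.90, 4.20 and 4.50 in db/db. The DNA repair gene Brca2 rose by 0.67, the histone methyltransferase Ezh2 by 0.53 and Lin9, of the complex that times cell cycle genes, by 0.64. Their db/m means were 4.41, 5.13 and 5.13. Of 336 tested Zfp zinc finger genes, which mostly encode transcriptional repressors, 248 lay above 0 and 61 (18.2%) were higher without overlap (median 0.11), beside 10.4% of all genes higher without overlap, and 3 rose, or 0.893%, beside 0.592% of all genes. They were Zfp788 (0.70), Zfp879 (0.69) and Zfp759 (0.61). The median of the family was 0.13 after median scaling and 0.09 after quantile normalization, where the medians of all genes were 0.02 and -0.01. Rrm1 and Zfp788 passed with any array left out. The other 9 calls of this paragraph reached adjusted p between 0.0838 and 0.143. Leaving out replicate 1, 2 or 3 of db/db lost 9, 6 or 9 of them, leaving out replicate 1, 2 or 3 of db/m 7, 5 or 8, and leaving out replicate 3 of the TSF arrays 6.

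Markers of lymphocytes and macrophages lay lower in db/db, and most missed the threshold. All 11 lymphocyte markers lay below 0 (median -0.29, and -0.72 over those left by the stricter filter at percentile 50). Of the 11, 1 fell, beside 0.462% of all genes. It was Cd3e of the T cell receptor complex, which went from 5.33, 4.92 and 4.90 to 4.24, 4.39 and 4.19 (-0.78; adjusted p = 0.0239). Cd3g (-0.74) and Cd8a (-0.72), other T cell genes, did not pass. Ccl5, a chemokine that T cells make, fell from 6.32, 6.45 and 6.63 to 5.26, 5.61 and 5.05 (-1.16; adjusted p = 0.00335). All 9 macrophage markers lay below 0 with 0 calls (median -0.21; 4 at an unadjusted p under 0.05). All 9 neutrophil markers lay above 0 with 0 calls in the limma fit, 0 at an unadjusted p under 0.05 and overlap at all 9. Their level was high in db/db replicate 3 alone, with a list median of 4.57 against 3.13 to 3.47 on the other 5 arrays. The list median difference was 0.62, and 0.07 without that array. Mpzl2, an epithelial junction protein and the neighbour of Cd3e, rose from 6.90, 7.21 and 7.04 to 7.91, 8.05 and 8.04 (0.95; adjusted p = 0.00296).

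All 9 podocyte markers lay above 0 with 0 calls (median 0.18; 3 at an unadjusted p under 0.05). The 12 endothelial markers had a median of -0.01, which was 0.01 after median scaling, with 0 calls and 1 at an unadjusted p under 0.05. Rgs5, a pericyte gene, rose from 8.70, 8.52 and 8.43 to 9.12, 9.06 and 9.39 (0.64; adjusted p = 0.0233). It was the only call among 8 mesangial and smooth muscle markers, beside 0.592% of all genes that rose. Of 43 collagen genes 0 passed in the limma fit (median -0.08, and -0.024 without db/db replicate 1; 9 at an unadjusted p under 0.05). Sprr1a, a small proline-rich protein of stressed epithelia, rose from 3.95, 4.58 and 3.86 to 5.77, 5.64 and 5.91 (1.64; adjusted p = 0.0093), and the simple-epithelium keratin Krt19 rose by 0.49. Markers of pelvic urothelium, a tissue that a cortex sample could hold, leaned the same way: all 6 tested lay above 0 with 0 calls (median 0.51; 4 at an unadjusted p under 0.05), and their list median was 3.42 to 4.10 in db/m and 4.09 to 4.50 in db/db. Psca had 0.79 and Upk1a 0.68. The part of urothelium in the rises of Sprr1a and Krt19 was not tested. Adipocyte markers were highest in db/m replicate 2, with a list median of 4.59 against 3.33 to 3.46 on the other 5 arrays. Ccl5 and Mpzl2 passed with any array left out. Cd3e was lost when replicate 1 of either group (adjusted p up to 0.0951) or replicate 3 of db/db was left out. Rgs5 was lost in 4 of 9 fits, Krt19 in 8, and Sprr1a only without db/m replicate 3 (adjusted p = 0.0516).

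**Figure D5:**
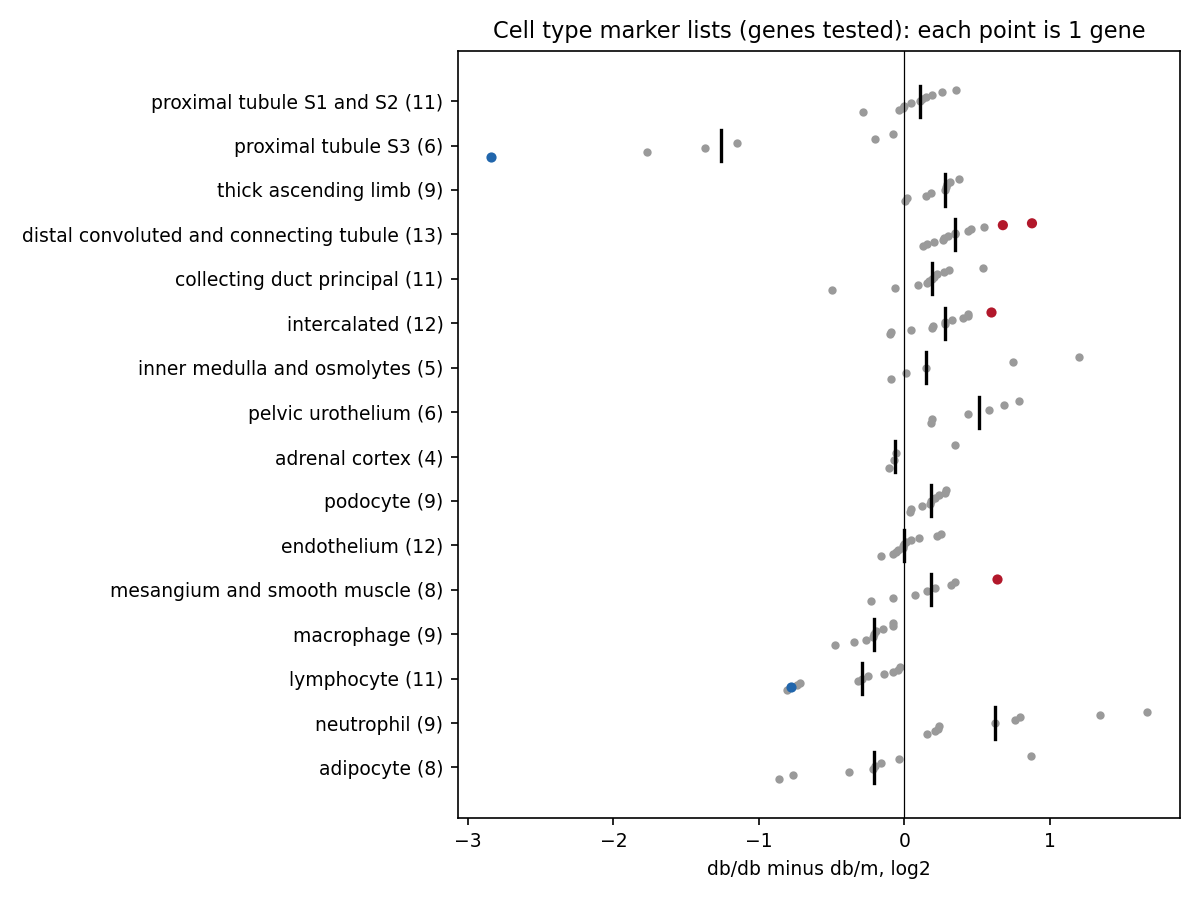
Differences between db/db and db/m (log2) of the tested genes of 16 cell type marker lists, 1 point per gene, with the number tested in brackets; black bars are medians, red and blue points passed an adjusted p of 0.05. S3 markers lie to the left (median -1.26) and distal convoluted and connecting tubule markers to the right of 0 (median 0.35), and S1 and S2 markers lie near 0 (median 0.11).

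Some gene classes fixed as lists held no call, beside 1.05% of all genes called. Of 61 cytosolic ribosomal protein genes, 16 immediate early genes, 10 heat shock genes and 201 microRNA genes, 0 passed in the limma fit. An unadjusted p under 0.05 was reached by 4, 6, 2 and 24 of them, beside 2474 of all 17740 genes. Of 224 olfactory receptor genes 2 fell, or 0.893%, beside 0.462% of all genes. The 15 circadian clock genes had a median of 0.48 with 0 calls and 12 at an unadjusted p under 0.05. Their control arrays differed among themselves: Npas2 lay at 5.73, 6.0 and 7.86 in db/m and at 4.74, 5.04 and 4.94 in db/db, and Per3 at 5.83, 5.78 and 4.90 against 6.53, 6.67 and 6.23. The list median was 0.30 without db/m replicate 3. Protein-coding genes were called at 1.13% (179 of 15848) and long non-coding RNAs at 0.48% (6 of 1249). When all 28941 probe sets above the filter were fitted together, 10 of the 10187 probe sets without a single symbol rose and 5 fell, beside 30 and 32 of 18754 named ones. Of the 187 called genes 5 had a second probe set, taken here without a filter on dim ones. It had the same sign in all 5, with an unadjusted limma p under 0.05 in 2, Rgs5 and Aldh3a2. The second probe sets of Adh1 and Pdk1 had mean levels of 2.32 and 2.09, under the filter of 2.65, and that of Kcnma1 had 2.71.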

How the data were processed

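RNA of 9 cortex samples, 3 per group, was measured on Affymetrix arrays. The deposited values are linear intensity values, 1 per probe set and array. Per the submitters' processing notes the authors used Transcriptome Analysis Console and Affymetrix Expression Console. How background and scale were treated is not given in the sources used here, and no detection calls were used, so a low level cannot be told from background. The number of arrays limits the precision.

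Of 41345 probe sets, 23521 had 1 gene symbol in the platform annotation, 1814 had several and 16010 others were unnamed here. The brightest probe set stood for each of 22180 genes. Intensities were taken as log2(value + 1), so differences of dim genes are understated. Genes with a mean below percentile 30 of the probe set means (2.65) were left out, which left 17740. One mean per group was fitted over all 9 arrays with limma 3.58.1 (R 4.3.3), and genes with a Benjamini-Hochberg adjusted p under 0.05 were called. P-values in the text are from this limma fit unless another fit is named beside them. The arrays were not rescaled.

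The members, the 38 gene lists of textbook markers and pathways, the gene families and the rule for named genes were chosen with earlier results of these data known. The rule took the 25 largest called rises and falls without overlap (clone and model names aside), called members of lists and the 3 of smallest p in a described list, the 10 largest differences each way that did not pass, the 10 brightest called genes, leptin receptor signalling genes and neighbouring paralogs. Other names are said to be chosen after their values were seen. Promoters came from RefSeq (GRCm38.p6). The alternatives covered probe set choice, filter, scaling, variance model, arrays in the fit, pseudocount, threshold, replicate number as a block and leaving out each array. The fit was tested on simulated data.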

Additional observations from a re-analysis of the deposited data

How the results depend on the processing

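The count of 187 genes (105 up, 82 down) depended on the test and on single arrays. A Welch test without moderation called 0 genes (1333 at an unadjusted p under 0.05, 745 up and 588 down). An adjusted p under 0.1 gave 442 genes, 256 up and 186 down. With only the 6 arrays of both groups 57 rose, and 130 changed in all. Fitting all probe sets together, an alternative chosen after seeing the data, called 62 with a symbol, 30 up and 32 down. Leaving out 1 array gave 72 to 194 genes, 33 to 97 of them up and 39 to 97 down. The remaining settings, on probe set choice, filter, scaling, variance model and pseudocount, stayed within 1.5 times of each count, though quantile normalization turned the balance to 85 up and 90 down. Replicate numbers are shared between the groups, but same-numbered arrays did not deviate together (correlations of -0.08 to 0.15), so they do not pair the samples. With the replicate block 137 genes passed, 74 of them up. Of the 129 single genes examined, 2 that had not passed changed sign, both without db/db replicate 3: with 1 array left out Epo ranged from -0.61 to 2.11 and Lepr from -0.068 to 0.28. Of the medians of 39 lists under 22 settings, 847 of 858 moved by less than 1 SD of the arrays, and 21 changed sign, all of lists with a median near 0 or the leptin receptor list.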

Other observations

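Genes of iron and zinc handling leaned upward without a call. Of 11 tested, 7 were higher in db/db without overlap, beside 10.4% of all genes (median 0.17), 0 passed in the limma fit and 4 had an unadjusted p under 0.05. Heph, a copper-containing iron oxidase, lay at 5.28, 5.31 and 4.82 in db/m and at 5.49, 5.77 and 5.88 in db/db (0.57; limma adjusted p = 0.0906). The transferrin receptor gene Tfrc had 0.59 and the metallothionein Mt1 0.36, and neither passed. Genes of purine and urate handling went both ways: of 13 tested, 3 were higher and 5 lower without overlap, beside 10.4% and 8.28% of all genes, 0 passed in the limma fit and 8 had an unadjusted p under 0.05. The apical urate exchanger Slc22a12 lay at 10.51, 10.62 and 10.76 in db/m and at 10.31, 10.31 and 9.92 in db/db (-0.45; limma adjusted p = 0.149), and the urate and sugar carrier Slc2a9 had 0.43.

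A few genes were high on 1 array alone. Epo, which encodes erythropoietin, lay at 8.97 in db/db replicate 3 and between 3.53 and 4.52 on the other 8 arrays. Retnlg and S100a8, both of neutrophils, lay at 8.26 and 6.10 on that array and at no more than 3.93 and 2.54 on the others. In db/m replicate 2 the adipocyte genes Cidec and Retn lay at 5.56 and 5.60, and at no more than 4.03 and 3.49 elsewhere.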
